A study of Mus musculus with 15 samples.

Results

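The genes described here are 9 regulators of skeletal muscle formation and muscle mass: Myod1, Myf5, Myf6, Myog, Mef2c, Pax7, Mstn, Fst and Acvr2b. Members were chosen by name, as the probe sets whose single gene symbol in the platform annotation is one of these symbols. Each symbol had 1 probe set, so 9 of the 19938 named genes on the array were taken, and all 9 were bright enough to be tested.

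Myod1, Myf5, Myf6 and Myog are basic helix-loop-helix transcription factors that commit cells to the muscle lineage and drive their differentiation, binding DNA at short sites called E-boxes, and Mef2c is a MADS-box factor that acts with them on many muscle genes. Pax7 marks satellite cells, the stem cells that lie beside the fibres and repair them. Myostatin, the product of Mstn, is a growth factor of the TGF-beta family that fibres secrete and that limits muscle mass: it binds activin type II receptors such as the one encoded by Acvr2b, which signal through SMAD2 and SMAD3, and follistatin, the product of Fst, binds myostatin and activins and keeps them from the receptor.

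RNA came from the gastrocnemius, a calf muscle, of male C57BL/6 mice aged 12 months, with 1 mouse on each of 15 Affymetrix arrays. The 4 groups were wildtype mice on the control diet (3 arrays), wildtype mice on calorie restriction, CR (4 arrays), Sirt3 knockout mice on the control diet (4 arrays) and Sirt3 knockout mice on CR (4 arrays). Sirt3 encodes a deacetylase of mitochondria. The sources used here do not give the degree and length of CR, or whether the knockout was of the whole body. The comparisons ask how CR acts on muscle transcripts and whether it does so without Sirt3.

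Values are log2 signals made with RMA, which corrects background, normalizes arrays to a common distribution and combines the probes of a set into 1 value. The medians of the arrays lay between 5.40 and 5.48. The Sirt3 probe set read 6.52 ± 0.11 (SD) over the 7 wildtype arrays and 5.57 ± 0.49 (SD) over the 8 knockout arrays, with the lowest wildtype array (6.38) above the highest knockout array (6.19). The sources used here do not say whether its probes lie within the deletion. The mean of 10 skeletal muscle fibre markers lay between 12.37 and 12.64 on every array. Markers of other tissues lay over 2 log2 units above the median array on 4 arrays: male germ cell markers on wildtype control replicate 3 (4.26 above) and knockout control replicate 1 (3.72 above), pancreatic markers on wildtype control replicate 2 (7.28 above) and liver markers on wildtype CR replicate 4 (2.66 above). Under that limit, liver markers still lay 1.51 above on wildtype control replicate 1 and 1.56 above on knockout control replicate 2. Leaving out the 4 arrays therefore does not remove all such transcripts. In whole muscle, fewer cells of a type and less RNA per cell cannot be told apart.

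No member passed the test of any comparison, at an adjusted p under 0.05 with limma over all 12056 tested genes. For CR in wildtype mice, 0 of 9 members were called beside 0.124% of tested genes, and for CR in knockout mice 0 of 9 beside 0.0664%. For the difference between these responses the counts were 0 of 9 and 0%, and for CR averaged over the genotypes 0 of 9 and 1.07%. For knockout against wildtype mice the shares of tested genes were 0% on the control diet, 0.0166% on CR and 0% averaged over the diets, with 0 of 9 members in each. Beside shares this small, a count of 0 of 9 says nothing particular to the members. Sirt3, the gene knocked out, was also not called for genotype. Its knockout minus wildtype differences were -0.93 on the control diet, -0.99 on CR and -0.96 averaged over the diets. The limma adjusted p were 0.599, 0.605 and 0.318 in that order. A count of 0 of 9 for genotype therefore does not show that the members were unchanged.

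At an unadjusted p under 0.05, 1 member stood beside 13.1% of tested genes for CR in wildtype mice (Mstn) and 1 beside 12% for CR in knockout mice (Acvr2b). The difference between the responses had 1 member (Mstn) beside 5.71%, and CR averaged over the genotypes had 3 (Mstn, Myod1 and Acvr2b) beside 20.1%. Knockout against wildtype had 2 members (Mstn and Myod1) beside 7.03% on the control diet, 0 beside 5.92% on CR, and 2 (Mstn and Myod1) beside 7.18% averaged over the diets. The arrays of both groups were fully apart for 1 member, Mstn, lower with CR in wildtype mice, where 2.95% of tested genes were lower without overlap. It was also the 1 member fully apart, and lower, in knockout mice on the control diet, beside 1.29% of tested genes. For CR in knockout mice 0 members were apart, beside 6.98% of tested genes, and for knockout against wildtype on CR 0 beside 4.6%.

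With CR, 4 members read higher and 5 lower in wildtype mice, and 3 higher and 6 lower in knockout mice, where 37.7% and 47.0% of all tested genes read lower. The median log2 difference over the 9 members was -0.01 for CR in wildtype mice and -0.09 for CR in knockout mice, beside 0.04 and 0.01 over all tested genes. For knockout against wildtype on the control diet it was -0.05 beside 0.02.

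**Figure D1:**
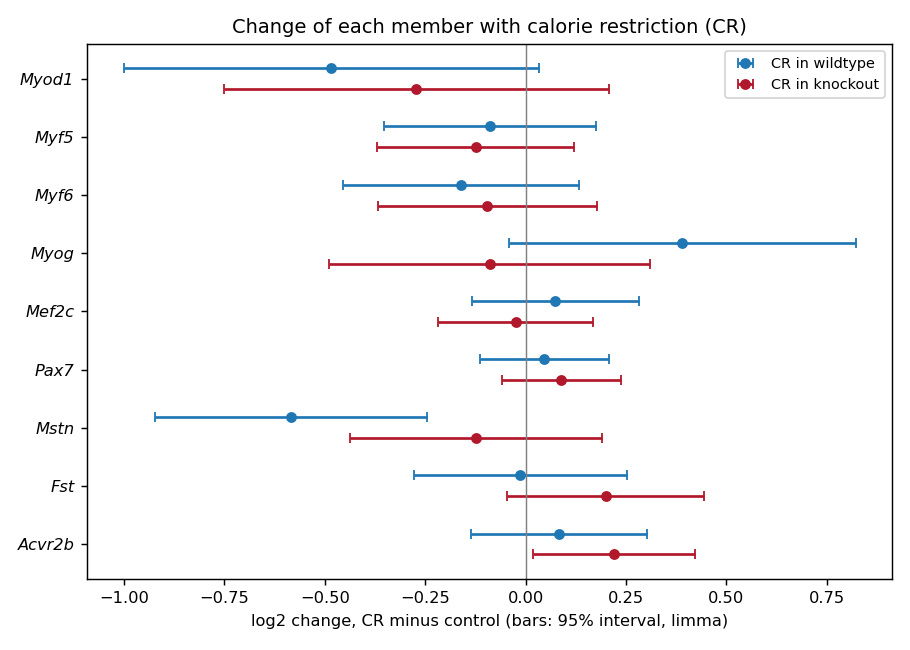
Log2 differences of the 9 members (rows) for CR minus control in wildtype mice (blue) and in knockout mice (red), as points with 95% intervals from limma. The Mstn point for wildtype mice lies lowest, at -0.58, and its interval of -0.92 to -0.25 stays clear of 0, though no member passed the adjusted test.

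Mstn, the ligand that limits muscle mass, had the largest difference of the 9 members with CR in wildtype mice and with genotype on the control diet. Its log2 values were 9.14, 9.11 and 9.04 in wildtype control muscle and 8.58, 8.41, 8.65 and 8.42 in wildtype CR muscle. The knockout control arrays read 8.35, 8.55, 8.83 and 8.15, and the knockout CR arrays 8.71, 8.46, 8.11 and 8.12. The 3 wildtype control arrays were thus above every other array, and the other 3 groups overlapped each other.

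The 250 bases before the Mstn start are shown because Mstn had the largest difference and MyoD family factors act at E-boxes. The window lies at chr1:53061390-53061639 on the plus strand of GRCm38.p6 (RefSeq), and capitals mark each E-box, searched as CANNTG, which reads the same on both strands.
Mstn: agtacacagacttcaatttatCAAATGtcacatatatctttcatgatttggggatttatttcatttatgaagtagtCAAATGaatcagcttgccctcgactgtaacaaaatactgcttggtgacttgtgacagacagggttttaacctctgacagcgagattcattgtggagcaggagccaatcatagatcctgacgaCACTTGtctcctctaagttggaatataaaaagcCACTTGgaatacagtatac
The window holds 4 E-boxes, with first bases at -229 and -174 (both CAAATG) and at -52 and -19 (both CACTTG) from the start. An E-box by these letters lay in 66.2% of 32851 such windows over all genes, so most windows hold one.

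**Figure D2:**
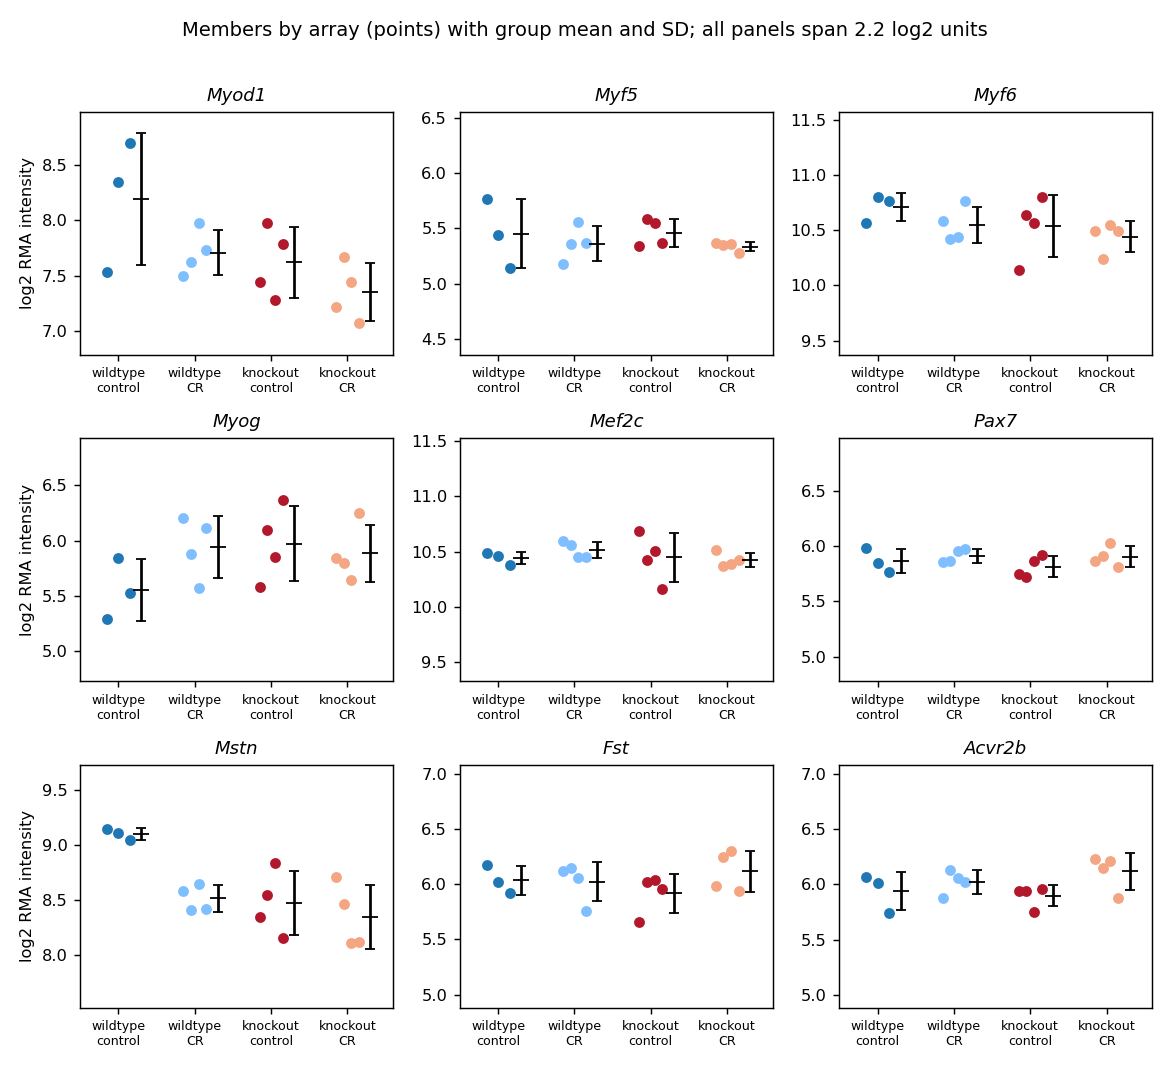
Log2 RMA value of each member on each of the 15 arrays, by group, with the group mean and SD beside the points, on panels of equal span. For Mstn the 3 wildtype control points (9.04 to 9.14) lie above all other points. The groups of the other 8 members overlap for CR in each genotype and for genotype on each diet.

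Group means of Mstn were 9.10 ± 0.05 (SD, n = 3) in wildtype control, 8.52 ± 0.12 (n = 4) in wildtype CR, 8.47 ± 0.29 (n = 4) in knockout control and 8.35 ± 0.29 (n = 4) in knockout CR muscle. Among the lower 3 groups, neighbours in this order differed by less than 1 SD of the knockout groups. The wildtype CR minus control difference was -0.58 (SE 0.16, 95% interval -0.92 to -0.25), a signal 0.667 of control. Its raw limma p was 0.00234, which ranked 157 of 12056 genes, and its adjusted p of 0.170 did not pass. The adjusted p lay between 0.123 and 0.641 over all alternatives, and the difference between -0.63 and -0.51. Without the 4 arrays with markers of other tissues, which leaves 1 wildtype control array, it was -0.60. That array, replicate 1, still had liver markers 1.51 log2 units above the median array.

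In knockout mice, Mstn differed by -0.12 with CR (SE 0.15, 95% interval -0.44 to 0.19, adjusted p = 0.757), less than the spread between arrays. Leaving out 1 array moved this value between -0.24 (without knockout CR replicate 1) and -0.0034 (without knockout control replicate 3). The CR response in knockout minus that in wildtype mice was 0.46 (SE 0.21), with a raw p of 0.050 and an adjusted p of 0.863, so the responses are not shown to differ. Averaged over the genotypes, the CR difference was -0.35 (SE 0.11), 0.783 of control, with an adjusted p of 0.110.

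Knockout minus wildtype on the control diet was -0.63 for Mstn (SE 0.16, 95% interval -0.96 to -0.29), a signal 0.648 of wildtype. The raw limma p of 0.00136 ranked 21 of 12056 genes, and the adjusted p was 0.599. Without the 4 arrays with markers of other tissues the difference was again -0.63. This comparison and CR in wildtype mice share the same 3 wildtype control arrays. On CR, without those arrays, the genotypes differed by -0.17 (SE 0.15, adjusted p = 0.932), and averaged over the diets by -0.40 (SE 0.11, adjusted p = 0.507).

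Fibroblast markers were also highest on the wildtype control arrays. The mean of the 7 measured of 8 listed markers (Pdgfra, Dcn, Lum, Col1a1, Col3a1, Dpt and Gsn) lay between 8.49 and 8.59 there, 8.22 and 8.37 in wildtype CR, 8.16 and 8.42 in knockout control, and 8.12 and 8.35 in knockout CR muscle. All 7 were lower in wildtype CR and all 7 lower in knockout control than in wildtype control muscle, with median differences of -0.20 and -0.14, and none lay under the brightness limit of the test. The 8 tendon markers ran likewise, from 7.40 to 7.72 in wildtype control, 6.50 to 7.24 in wildtype CR, 6.94 to 7.28 in knockout control and 6.39 to 7.16 in knockout CR muscle. Of these, 6 of 8 were lower in wildtype CR and 7 of 8 lower in knockout control than in wildtype control muscle. Over the 15 arrays Mstn correlated with the fibroblast mean at r = 0.80 and the tendon mean at r = 0.64. Within groups, after group means were removed, these values were 0.45 and 0.23. Over the arrays the fibroblast and tendon means had the highest r of Mstn with any marker set examined. Within groups the tendon value stood below that of B cell markers (0.30), of which 4 of 5 measured lay under the brightness limit. Schwann cell and nerve markers read -0.48 within groups. Pancreatic markers, 9 of 12 measured and 3 of these under the brightness limit, were also highest on the wildtype control arrays. Their mean lay between 5.57 and 12.26 there and between 4.83 and 5.12 on the others. Its r with Mstn was 0.52 over the arrays and 0.02 within groups. The part of these markers in the Mstn result was not tested.

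**Figure D3:**
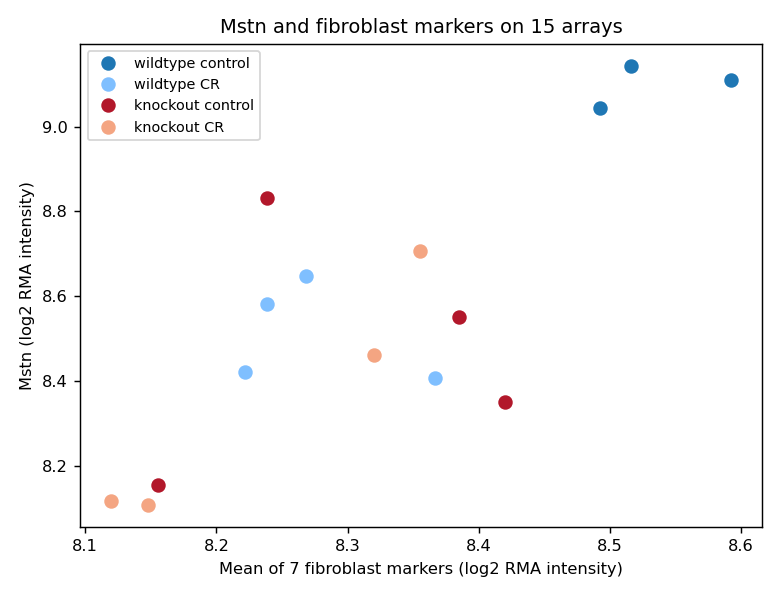
Mstn log2 value (vertical) against the mean log2 value of 7 fibroblast markers (horizontal), 1 point per array, coloured by group. The 3 wildtype control arrays lie at the upper right, with fibroblast means of 8.49 to 8.59 and Mstn values of 9.04 to 9.14.

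Fst, the secreted binder of myostatin and activins, read 6.17, 6.02 and 5.92 in wildtype control and 6.12, 6.15, 6.06 and 5.76 in wildtype CR muscle. Knockout control arrays read 5.66, 6.02, 6.03 and 5.96, and knockout CR arrays 5.98, 6.24, 6.30 and 5.94. All groups overlapped. The CR difference was -0.01 in wildtype mice (SE 0.12, 95% interval -0.28 to 0.25, adjusted p = 0.970) and 0.20 in knockout mice (SE 0.11, 95% interval -0.05 to 0.44, adjusted p = 0.517), and the difference between them, 0.21 (SE 0.17), had an adjusted p of 0.933. Knockout minus wildtype was -0.12 (SE 0.12) on the control diet and 0.09 (SE 0.11) on CR.

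Acvr2b, the receptor, read 6.06, 6.01 and 5.74 in wildtype control and 5.88, 6.13, 6.05 and 6.02 in wildtype CR muscle. Knockout control arrays read 5.94, 5.94, 5.75 and 5.96, and knockout CR arrays 6.23, 6.15, 6.22 and 5.87. In knockout mice 3 of 4 CR arrays were above every control array, and the fourth lay among them. The CR difference there was 0.22 (SE 0.09, 95% interval 0.02 to 0.42), a signal 1.16 times control, with a raw p of 0.0347 and an adjusted p of 0.376. In wildtype mice it was 0.08 (SE 0.10, adjusted p = 0.726), a sign that turned to -0.043 without the 4 arrays with markers of other tissues, and the 2 responses differed by 0.14 (SE 0.14, adjusted p = 0.951).

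Myod1, a factor that sets cells on the muscle lineage, read 7.53, 8.35 and 8.70 in wildtype control muscle, 7.49, 7.62, 7.98 and 7.74 in wildtype CR, 7.44, 7.98, 7.28 and 7.79 in knockout control and 7.21, 7.67, 7.45 and 7.07 in knockout CR muscle. Wildtype control replicates 2 and 3 held the highest values of all arrays, and replicate 1 lay within the other groups. Group means were 8.19 ± 0.60 (n = 3), 7.71 ± 0.21, 7.62 ± 0.32 and 7.35 ± 0.26 (n = 4 each).

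The CR difference of Myod1 was -0.48 in wildtype mice (SE 0.24, 95% interval -1.0 to 0.03, adjusted p = 0.403) and -0.27 in knockout mice (SE 0.22, adjusted p = 0.643). Knockout minus wildtype was -0.57 on the control diet (SE 0.24, adjusted p = 0.666), -0.36 on CR (SE 0.22, adjusted p = 0.884) and -0.47 averaged over the diets (SE 0.16, adjusted p = 0.645). Leaving out wildtype control replicate 1 took the CR difference in wildtype mice to -0.81 and the genotype difference on the control diet to -0.90, and leaving out replicate 3 took them to -0.23 and -0.32. Both high arrays are among the 4 with markers of other tissues. The others of these 4 read lower, at 7.44 on knockout control replicate 1 and 7.74 on wildtype CR replicate 4. Without those 4 arrays, 1 wildtype control array was left, and the CR difference in wildtype mice turned to 0.17 and the genotype difference on the control diet to 0.15. The heat shock cochaperone gene Dnajb1 was also highest on wildtype control replicates 2 and 3, at 8.17 and 8.39. On the others it lay between 5.43 and 7.45. Dnajb1 was picked as the gene most like Myod1 over the same arrays (r = 0.872), so sharing its high arrays follows from that choice. The part of the other transcripts of replicates 2 and 3 in the Myod1 values was not tested.

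Myog, which drives the fusion and differentiation of myoblasts, read 5.29, 5.84 and 5.53 in wildtype control and 6.20, 5.87, 5.57 and 6.12 in wildtype CR muscle. Knockout control arrays read 5.58, 6.10, 5.85 and 6.37, and knockout CR arrays 5.84, 5.80, 5.64 and 6.25. Wildtype control muscle held the lowest array of all, and 3 of 4 wildtype CR arrays lay above the 3 wildtype control arrays. That lowest array, replicate 1, lay under the brightness limit of 5.32, and the mean of Myog over all arrays lay 0.541 above the limit. The limma differences were 0.39 for CR in wildtype mice (SE 0.20, 95% interval -0.04 to 0.82, adjusted p = 0.417), -0.09 for CR in knockout mice (SE 0.19, adjusted p = 0.869) and 0.42 for genotype on the control diet (SE 0.20, adjusted p = 0.718). The CR responses differed by -0.48 (SE 0.27, adjusted p = 0.863). Leaving out the 4 arrays with markers of other tissues left wildtype control replicate 1 alone in its group. The differences were then 0.60 for CR in wildtype mice, -0.22 for CR in knockout mice and 0.82 for genotype on the control diet. As with Mstn, CR in wildtype mice and genotype on the control diet use the same wildtype control arrays.

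The Myog window is shown beside that of Mstn because the product of one MyoD family gene can act on another through E-boxes near its start. It lies at chr1:134289754-134290003 on the plus strand of GRCm38.p6 (RefSeq), again with E-boxes in capitals.
Myog: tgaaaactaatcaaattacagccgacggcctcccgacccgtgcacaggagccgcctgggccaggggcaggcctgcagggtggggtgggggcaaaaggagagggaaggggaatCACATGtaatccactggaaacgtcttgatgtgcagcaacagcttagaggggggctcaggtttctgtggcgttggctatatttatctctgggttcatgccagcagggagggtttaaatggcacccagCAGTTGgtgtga
It holds 2 E-boxes, CACATG with its first base at -138 and CAGTTG at -12. Of the 9 members, 6 had a window, with 8 windows in all since Mef2c had 3. E-boxes numbered 2, 0 and 1 in the 3 Mef2c windows, and 0 in those of Pax7, Acvr2b and Myf5. A match is a description of the sequence and not of binding.

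Myf6, the family member with a lasting role in grown fibres, read 10.57, 10.80 and 10.76 in wildtype control and 10.58, 10.42, 10.43 and 10.77 in wildtype CR muscle. Knockout control arrays read 10.14, 10.63, 10.57 and 10.80, and knockout CR arrays 10.49, 10.24, 10.54 and 10.49. The groups overlapped for CR in each genotype and for genotype on each diet. All wildtype control arrays lay above all knockout CR arrays, a pair not compared here. Differences were -0.16 for CR in wildtype mice (SE 0.14, adjusted p = 0.611) and -0.10 for CR in knockout mice (SE 0.13, adjusted p = 0.786). For genotype averaged over the diets the difference was -0.14 (SE 0.09, adjusted p = 0.766). Without the 4 arrays with markers of other tissues the CR differences were -0.090 and -0.23.

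Myf5, which acts early in muscle commitment and in satellite cells, lay near the limit of the test, with a mean 0.0829 above it and 3 of 15 arrays below it. It read 5.77, 5.44 and 5.14 in wildtype control, 5.17, 5.36, 5.56 and 5.36 in wildtype CR, 5.34, 5.58, 5.55 and 5.37 in knockout control and 5.36, 5.35, 5.36 and 5.27 in knockout CR muscle. The 3 wildtype control arrays spanned the values of all other arrays. CR differences were -0.09 in wildtype mice (SE 0.12, adjusted p = 0.762) and -0.12 in knockout mice (SE 0.11, adjusted p = 0.679), and -0.41 and -0.16 without the 4 arrays with markers of other tissues.

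Pax7, the satellite cell factor, varied least, and its groups all overlapped. It read 5.98, 5.85 and 5.77 in wildtype control, 5.85, 5.87, 5.96 and 5.98 in wildtype CR, 5.75, 5.72, 5.87 and 5.92 in knockout control and 5.87, 5.91, 6.03 and 5.81 in knockout CR muscle. Its CR difference was 0.05 in wildtype mice (SE 0.07, 95% interval -0.11 to 0.21, adjusted p = 0.796) and 0.09 in knockout mice (SE 0.07, 95% interval -0.06 to 0.24, adjusted p = 0.622). Without the 4 arrays with markers of other tissues the former was -0.089.

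Mef2c, the MADS-box partner of the MyoD family, read 10.49, 10.46 and 10.38 in wildtype control, 10.59, 10.56, 10.46 and 10.45 in wildtype CR, 10.69, 10.43, 10.51 and 10.16 in knockout control and 10.51, 10.37, 10.39 and 10.42 in knockout CR muscle. The knockout control group held both the highest and the lowest array. CR differences were 0.07 in wildtype mice (SE 0.10, 95% interval -0.13 to 0.28, adjusted p = 0.748) and -0.02 in knockout mice (SE 0.09, 95% interval -0.22 to 0.17, adjusted p = 0.933), the latter turning to 0.056 without the 4 arrays with markers of other tissues.

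The members differed in their spread between mice. The SD between arrays within groups, pooled over the groups with 11 degrees of freedom, was 0.351 for Myod1, 0.291 for Myog and 0.224 for Mstn, beside a median of 0.134 over tested genes. These lay at percentiles 94.2, 91.7 and 85.8 of tested genes. Myf6 (0.192), Fst (0.171) and Myf5 (0.170) followed, then Acvr2b (0.135) and Mef2c (0.128), and Pax7 (0.0891) lay at percentile 15.2. Over all 15 arrays Myod1 spanned 1.63 log2 units, Myog 1.08 and Mstn 1.03, and Pax7 0.309.

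Correlations between members over the 15 arrays hold the group differences described above. The highest Pearson r were 0.57 for Pax7 with Acvr2b, 0.49 for Myod1 with Myf6 and 0.48 for Myod1 with Mstn. The lowest were -0.54 for Myog with Mstn and -0.52 for Myf6 with Mef2c. With group means removed, Myod1 with Mstn read -0.14 and Myog with Mstn -0.29, while Myf6 with Myog read 0.71 against 0.33 over all arrays, and Myf6 with Mef2c -0.66.

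The genes with the pattern most like each member were found by Pearson r over the 15 arrays among all tested genes that are no member. For Mstn they were Arfgef1 (r = 0.884), Dcaf17 (0.862) and Styx (0.852), and for Myod1 they were Dnajb1 (0.872), Nle1 (0.869) and Specc1l (0.862). For Myog they were Surf1 (0.879), Yipf6 (0.859) and Ccnl2 (0.830), for Myf6 Uts2r (0.813), Slc38a2 (0.781) and Klf5 (0.778), and for Myf5 Slc12a4 (0.802), Npr2 (0.793) and Spef1 (0.783). For Fst they were Esrra (0.875), Sash3 (0.855) and Inf2 (0.850), and for Acvr2b Igsf3 (0.872), Rbfox1 (0.857) and Adamts10 (0.842). For Pax7 they were Ccr7 (0.861), Pax9 (0.850) and Ltbp2 (0.808), and for Mef2c Tet1 (0.843), Pja2 (0.833) and Slc45a4 (0.813). Each is the highest of the values over all tested genes, so these r describe these arrays only.

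The wider pathway was followed in 6 lists. Of the partners and cofactors of the myogenic factors, 34 of 38 listed genes were tested, and 0 were called by limma in any of the 7 comparisons. At an unadjusted p under 0.05, 3 were higher and 1 lower with CR in wildtype mice, and 0 and 3 in knockout mice, where 13.1% and 12% of all tested genes passed in either direction. Their median CR difference was 0.03 in wildtype and 0.01 in knockout mice, beside 0.04 and 0.01 over all tested genes. Sox6, a repressor of slow fibre genes, read 8.71, 8.77 and 8.69 in wildtype control and 9.10, 9.12, 8.98 and 9.03 in wildtype CR muscle, without overlap (0.33, SE 0.08, adjusted p = 0.133). Id2, which blocks basic helix-loop-helix factors, was -0.31 in knockout against wildtype mice over both diets (SE 0.10, adjusted p = 0.619).

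Myostatin and activin ligands and their binders had 16 of 20 tested and 0 called. Their median CR differences were -0.02 in wildtype and -0.05 in knockout mice, beside 0.04 and 0.01 over all tested genes. At an unadjusted limma p under 0.05, 2 were higher and 3 lower with CR in wildtype mice, and 1 and 2 in knockout mice. Of all tested genes, 13.1% and 12% passed that threshold in either direction. Wfikkn1, a secreted binder of myostatin, read 5.78, 6.00, 5.82 and 6.05 in knockout control and 6.26, 6.19, 6.27 and 6.09 in knockout CR muscle, without overlap (0.29, SE 0.07, adjusted p = 0.196). Dcn, a matrix proteoglycan that binds myostatin and is also one of the fibroblast markers above, read 12.00, 11.85 and 11.91 in wildtype control and 11.63, 11.71, 11.66 and 11.66 in wildtype CR muscle (-0.26, SE 0.07, adjusted p = 0.181).

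Activin receptors, SMADs and their regulators had 18 of 19 tested and 0 called. Their median CR difference was -0.01 in both genotypes, beside 0.04 in wildtype and 0.01 in knockout mice over all tested genes. At that unadjusted threshold 0 were higher with CR, and 2 of 18 were lower in wildtype and 3 of 18 in knockout mice, near the shares of 13.1% and 12% over all tested genes. The smallest p were those of Pmepa1, a TGF-beta target that restrains SMAD signalling, at -0.45 for CR in knockout mice (SE 0.12, adjusted p = 0.204), and of Smad3, at -0.29 for knockout against wildtype over both diets (SE 0.08, adjusted p = 0.536). The BMP arm, which signals through other SMADs and opposes the loss of muscle mass, had 17 of 20 tested and 0 called. Its median CR differences were -0.08 in wildtype and -0.04 in knockout mice, beside the same 0.04 and 0.01. At the unadjusted threshold 0 of its genes were higher and 1 lower in each genotype, beside the same 13.1% and 12%. Its type I receptors Bmpr1a (-0.21, SE 0.06, adjusted p = 0.507) and Bmpr1b (-0.27, SE 0.08, adjusted p = 0.536) had its smallest p, for genotype over both diets.

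Satellite cell genes had 20 of 22 tested, with 1 that rose and 1 that fell with CR averaged over the genotypes, where 1.07% of all tested genes were called, and 0 called in the other comparisons. At an unadjusted limma p under 0.05, 3 were higher and 2 lower with CR in wildtype mice, and 2 and 2 in knockout mice. Of all tested genes, 13.1% and 12% passed that threshold in either direction. Peg3, an imprinted zinc finger gene, rose by 0.89 (SE 0.17, adjusted p = 0.033). Its values were 6.66, 6.84 and 6.27 in wildtype control, 8.01, 7.59, 7.13 and 7.36 in wildtype CR, 7.05, 6.86, 6.42 and 7.45 in knockout control and 8.23, 7.79, 7.42 and 7.71 in knockout CR muscle, so the diets were apart in wildtype and overlapped in knockout mice. Adipocyte markers, 6 of 7 measured and none under the brightness limit, also ran higher with CR, 5 of 6 in wildtype mice (median 0.48) and 6 of 6 in knockout mice (median 0.56). Their mean lay between 6.88 and 7.37 in wildtype control, 6.74 and 8.31 in wildtype CR, 7.12 and 7.72 in knockout control and 7.24 and 8.50 in knockout CR muscle, and their part in the Peg3 result was not tested. Cd34, which satellite cells share with endothelium and fibroblasts, fell by 0.24 (SE 0.05, adjusted p = 0.046). The call of Peg3 held in 8 of 11 alternatives, and was lost with no filter (adjusted p = 0.060), without the arrays with germ cell markers (0.080) and without all 4 arrays with markers of other tissues (0.215). It was also lost, at adjusted p from 0.051 to 0.080, without wildtype control replicate 3, wildtype CR replicate 1, 2 or 4, knockout control replicate 2 or 3, or knockout CR replicate 2 or 4. The call of Cd34 held in 7 of 11, and was lost with no filter (adjusted p = 0.086), quantile normalization (0.055), the replicate block (0.083) and without the 4 arrays (0.205). It was also lost, at adjusted p from 0.051 to 0.094, without any 1 array other than wildtype control replicate 3.

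Muscle differentiation genes and targets of the myogenic factors had 25 of 28 tested, of which Mybph and Actc1 rose with CR in wildtype mice and with CR averaged over the genotypes, and 0 fell. Of all tested genes, 0.124% and 1.07% were called in these comparisons. Mybph, a thick filament binding protein, read 8.74, 9.22 and 8.73 in wildtype control and 10.31, 10.33, 9.96 and 10.39 in wildtype CR muscle, a difference of 1.35 (SE 0.16, adjusted p = 0.0055). Actc1, the cardiac actin that skeletal muscle makes before birth, read 11.18, 11.72 and 11.38 against 12.81, 12.91, 12.30 and 13.00, a difference of 1.33 (SE 0.16, adjusted p = 0.0055). Averaged over the genotypes, Mybph rose by 0.59 (SE 0.11, adjusted p = 0.031) and Actc1 by 0.85 (SE 0.11, adjusted p = 0.0075). The averaged call of Mybph held in 8 of 11 alternatives, and was lost with no filter (adjusted p = 0.057), the replicate block (0.052) and without the 4 arrays with markers of other tissues (0.085). It was also lost, at adjusted p from 0.052 to 0.074, without wildtype control replicate 3, wildtype CR replicate 1, 2 or 4, knockout control replicate 2, or knockout CR replicate 2, 3 or 4. In wildtype mice the call of Actc1 was lost with the replicate number as a block (adjusted p = 0.060), and both were lost when only the groups compared were fitted (adjusted p = 0.097 for Mybph and 0.152 for Actc1). In knockout mice the CR difference was -0.16 for Mybph (SE 0.15, adjusted p = 0.677) and 0.37 for Actc1 (SE 0.15, adjusted p = 0.342), and the responses of the genotypes differed by -1.51 (SE 0.22, adjusted p = 0.082) and -0.96 (SE 0.22, adjusted p = 0.641). Group means of Mybph were 8.90 in wildtype control, 10.25 in wildtype CR, 9.90 in knockout control and 9.74 in knockout CR muscle. Those of Actc1, in the same order, were 11.43, 12.76, 12.48 and 12.85. Knockout minus wildtype on the control diet was 1.00 and 1.05 (SE 0.16 each, limma adjusted p = 0.125 each). CR in wildtype mice, genotype on the control diet and the difference of the responses use the same wildtype control arrays. The list's median CR difference was 0.08 in wildtype and 0.0047 in knockout mice, beside 0.04 and 0.01 over all tested genes. At an unadjusted limma p under 0.05, 7 were higher and 1 lower with CR in wildtype mice, and 7 and 4 in knockout mice, beside 13.1% and 12% of all tested genes. For the difference of the responses 1 was higher and 9 were lower, beside 5.71% of all tested genes. The list, which holds Mybph and Actc1, was chosen with earlier results of these data known, so these counts only describe it.

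**Figure D4:**
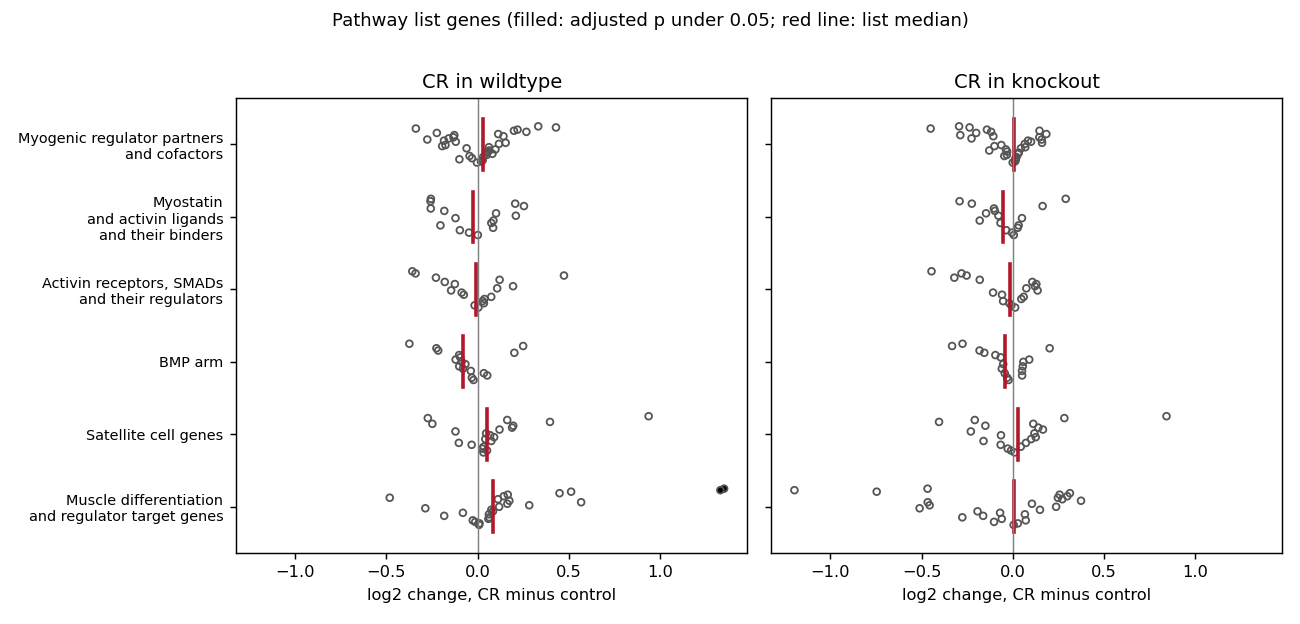
Log2 differences of the tested genes of the 6 pathway lists for CR in wildtype and in knockout mice, 1 point per gene, with a red line at each list's median and filled points at an adjusted p under 0.05. The list medians lie between -0.08 and 0.08, and the filled points, Mybph (1.35) and Actc1 (1.33), stand highest for CR in wildtype mice.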

How the data were processed

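RNA from the gastrocnemius of 15 mice was measured on 15 arrays. The deposited values are log2 intensities made with RMA, per the submitters' processing notes. The sources used here give neither its version nor any scan or hybridisation batch, so no batch was tested. RMA moves small differences of dim probe sets towards 0. Precision is limited by having 3 or 4 arrays in each group.

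Of 35556 probe sets, 21789 had 1 gene symbol in the platform annotation, 12146 are unnamed here, and the 1621 with several symbols were not used. A gene was represented by its brightest probe set over all arrays. Genes with a mean under the 40th percentile of listed probe sets, 5.32, were left out, which left 12056. All 15 arrays were fitted across all genes with limma 3.58.1 in R 4.3.3 (lmFit, eBayes, 1 mean per group). The 7 comparisons were CR in each genotype, the difference of these, CR averaged, knockout against wildtype on each diet, and that averaged. Each test was two-sided, and p-values were adjusted by Benjamini-Hochberg over all genes of a comparison. Errors beside differences are moderated standard errors, and those beside group means are SDs. The fit was tested on simulated data.

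The members and gene lists were chosen with earlier results of these data known. The genes named are the members, Sirt3, list genes past the threshold (or the 2 with the smallest p of a list without any, for CR in either genotype or genotype averaged over the diets), and the 3 tested genes most like each member. The values of markers and of Dnajb1 were set beside members afterwards. Promoter windows and gene starts are those of RefSeq (GRCm38.p6). Alternatives were the replicate number as a block, array weights, a trended robust prior, no filter or one at the 60th percentile, probe sets averaged by gene or tested singly, median centring, quantile normalization, a fit of the compared groups alone, leaving out arrays with markers of other tissues, and leaving out each array. Plots used matplotlib 3.10.9 in Python 3.11.15.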

Additional observations from a re-analysis of the deposited data

Results flagged for a closer look

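In 3 of 27 groups of 4 arrays, 1 array lay below the others for a member by most of the group's range. The gap to the nearest array over that range was above Dixon's 95% critical value, which chance alone exceeds in about 1 in 20 groups. Myf5 read 5.27 on knockout CR replicate 4, where the nearest array read 5.35 and the highest 5.36, a ratio of 0.834. The SD of that group was only 0.04, and Myf5 lay near the limit of the test. Myf6 read 10.24 on knockout CR replicate 2, with the others between 10.49 and 10.54, also a ratio of 0.834. Acvr2b read 5.75 on knockout control replicate 3, with the others between 5.94 and 5.96, a ratio of 0.889. The 3 arrays are different mice, and none is among the 4 arrays with markers of other tissues.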

How the results depend on the processing

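No member passed an adjusted p of 0.05 under any of 12 alternatives or in any of 15 limma fits without 1 array. Direction was followed for 27 member results. These were CR in each genotype for every member, and other comparisons only where the unadjusted limma p was low. Of 306 differences under the alternatives 11 turned direction, and of 405 without 1 array 7 did. The cause was not tested. Many of these differences could not turn. The filters, the handling of probe sets, the prior and the fit of the compared groups alone leave a member's difference unchanged. So does leaving out an array of a group not compared. With array weights, Acvr2b with CR in wildtype mice read -0.00091 and Mef2c with CR in knockout mice 0.017. Without the 2 arrays with germ cell transcripts, Pax7 and Acvr2b with CR in wildtype mice read -0.0026 and -0.015, and Mef2c with CR in knockout mice 0.056. Without all 4 arrays with transcripts of other tissues, Myod1, Pax7 and Acvr2b with CR in wildtype mice read 0.17, -0.089 and -0.043, Mef2c with CR in knockout mice 0.056, and Myod1 for genotype on the control diet 0.15. Leaving out 1 array gave ranges across 0 for CR in wildtype mice of -0.24 to 0.071 for Myf5, -0.073 to 0.074 for Fst, -0.0026 to 0.10 for Pax7 and -0.015 to 0.15 for Acvr2b, and for CR in knockout mice of -0.22 to 0.041 for Myog and -0.12 to 0.056 for Mef2c. With the replicate number as a block, Fst with CR in wildtype mice read 0.032, and Mstn read -0.51 there (limma adjusted p = 0.265) and -0.56 for genotype on the control diet. The numbers were not taken as a pairing: deviations from group means correlated at a median of 0.010 in 21 same-numbered pairs (-0.636 to 0.503) and -0.0087 in 63 others. The 60th percentile filter left 5 members untested (Myf5, Myog, Pax7, Fst and Acvr2b), and fitting only the groups compared gives no value of its own for the averages and the difference of responses.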
